A study of Mus musculus with 23 samples.

Results

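The amino acid transporter genes described here are the rows of the deposited expression table whose symbols belong to solute carrier families 1, 3, 6, 7, 36, 38 and 43, which made 40 of 14535 genes. Of these, 38 rows name a carrier protein. The other two, Slc36a1os and Slc7a6os, take their symbols from a position beside a carrier gene: Slc36a1os is annotated as an antisense RNA and Slc7a6os as a separate coding gene. RNA was sequenced in bulk from 23 mammary tumors of Brca1-deficient mice, 1 library per tumor, to describe how such tumors differ from each other. In these mice Brca1 was removed by an MMTV-Cre transgene acting on floxed Brca1 alleles, with or without a floxed Trp53 allele, on a mixed C57BL/6 and 129/Sv background. That promoter acts mainly in mammary epithelium. Whether blood vessels, fibroblasts and immune cells within a tumor piece keep Brca1 is not given. The labels place all 23 tumors in a single group with the strain given as mixed, and they give neither ages, Trp53 genotypes nor normal gland controls for these libraries. The comparisons below therefore follow the tumors along gene scores and pairs of genes.

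Amino acids cross the plasma membrane by exchange, by co-transport with sodium or protons, or by facilitated diffusion, and carriers differ in their mode and range of substrates. Several carriers of the Slc7 family work only as light chains joined to the heavy chain Slc3a2 (CD98), which brings them to the cell surface. Tumor cells draw on these carriers for glutamine, for leucine and other essential amino acids that feed mTORC1 signalling, and for cystine, from which the antioxidant glutathione is made. When amino acids run short, the transcription factor ATF4 is known to induce a set of biosynthesis and carrier genes.

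All levels are log2(FPKM + 1), where FPKM is fragment number per transcript length and mapped library total, so levels of different genes are per length. How deeply a library was sequenced is unknown, and a value of exactly 0 may be a failed estimate, so genes are said to be listed at 0. The median level of all tested genes ran from 3.08 in X1310T1 to 3.59 in X4351T. Mammary epithelial keratins were present in every tumor (Krt8 from 4.79 to 10.9, Krt18 from 4.05 to 10.6), but a score of 19 epithelial genes fell into 19 tumors with higher and 4 with lower values (X520T, X92T, X9387T and X738T). A score of 20 immediate-early genes, which respond rapidly to stimulation, fell into 15 tumors with higher and 8 with lower values. The titles hold 19 distinct numbers, 4 of which occur in a pair of tumors. Nothing in the labels says that tumors came from separate mice, so p-values measure the spread between these tumors.

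The carriers were dominated by a few genes. The FPKM summed over the 38 carriers ran from 320 in X1463T1 to 658 in X606T, with a median of 499. Slc3a2 alone took between 15.8% (X738T) and 39.9% (X1310T1) of that sum, and the 6 carriers with the largest FPKM took between 58.0% and 82.5%. Between 21 and 26 carriers per tumor exceeded an FPKM of 1.

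**Figure D1:**
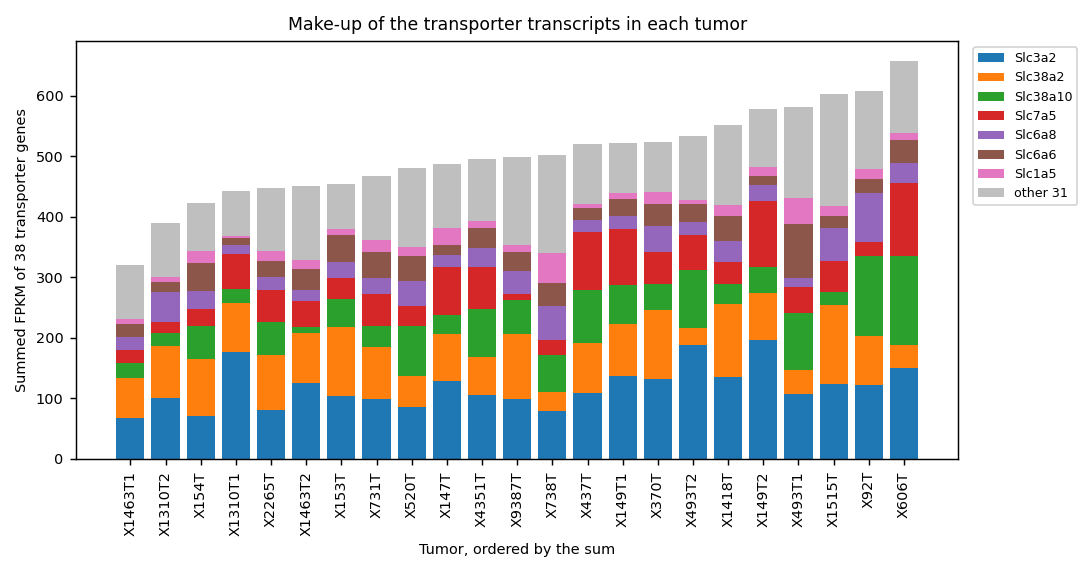
FPKM summed over the 38 carrier genes (vertical axis) in each of the 23 tumors, ordered by the sum, with the 7 carriers of highest mean FPKM in colour and the other 31 in grey. The sums run from 320 to 658, and Slc3a2 (blue) holds 15.8% to 39.9% of each bar.

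Of the 40 genes, 28 reached an average FPKM of at least 1 and were tested with the 12041 genes of the table that passed the same limit. They were 27 carriers and Slc7a6os. The SD across tumors was at least 1 for 9 of the 28, beside 23.6% of all genes tested, and the median SD was 0.867 for the members and 0.714 for all genes tested. With a pseudocount of 0.1 the members with such an SD numbered 14 of 28, beside 40.2% of all genes tested. By family, 9 of 11 Slc7 genes were tested, 6 of 8 Slc38 genes, 5 of 9 Slc6 genes, 3 of 5 Slc1 genes, 2 of 3 Slc36 genes, 2 of 3 Slc43 genes, and Slc3a2 alone of the Slc3 family.

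**Figure D2:**
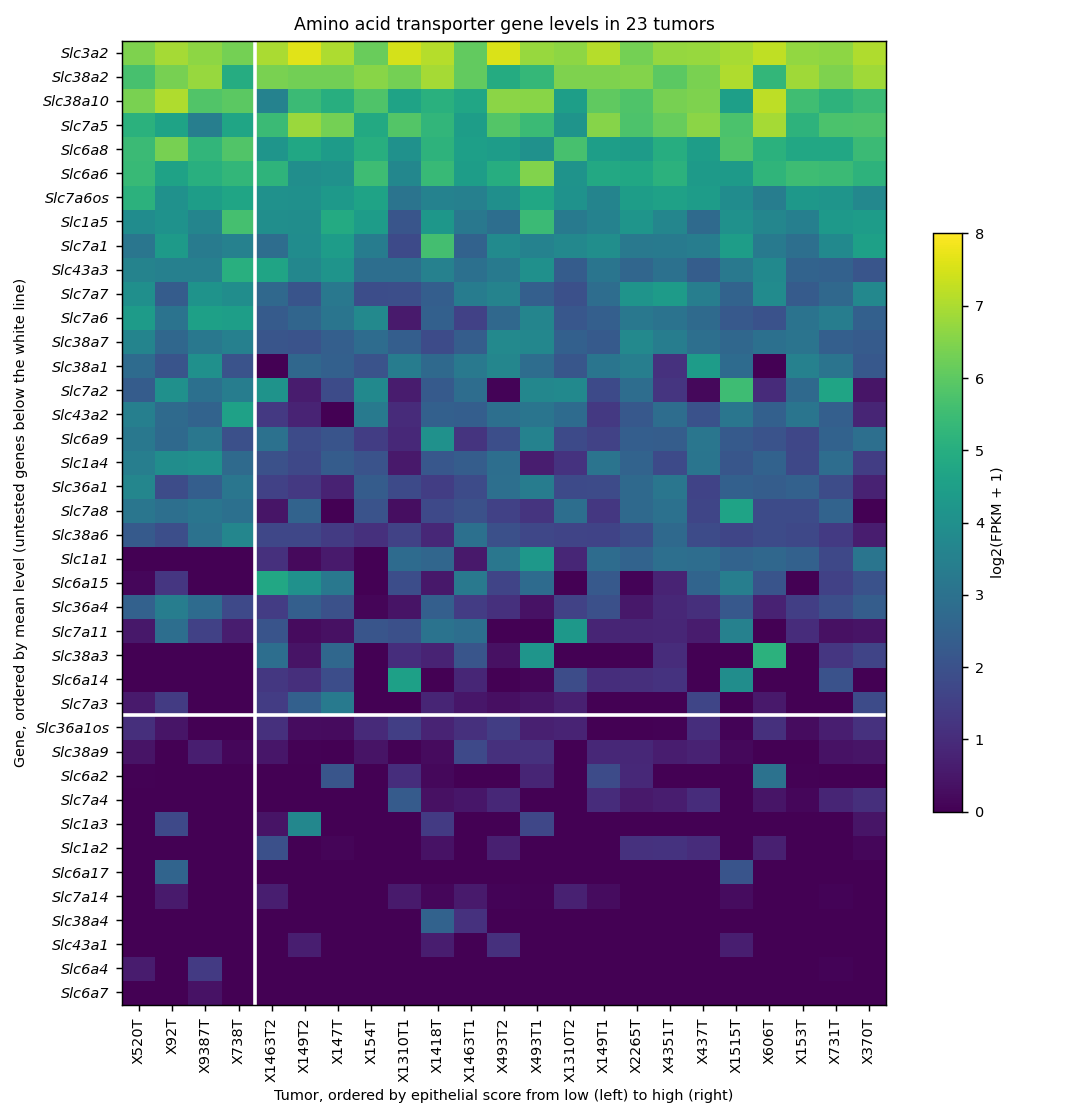
Levels as log2(FPKM + 1) (colour, 0 to 8) of the 40 genes in rows, ordered by mean, and the 23 tumors in columns, ordered by epithelial score, with the 4 tumors of lower score left of the vertical line. The 12 genes below the horizontal line had a mean FPKM under 1; Slc3a2 at the top ranges from 6.08 to 7.63, whereas Slc1a1 is listed at 0 in all 4 tumors on the left and in X154T.

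The heavy chain Slc3a2 (chr19:8706882-8723369, minus strand) was the most abundant carrier gene and also one of the steadiest. It ranged from 6.08 in X1463T1 through a median of 6.78 to 7.63 in X149T2, with a mean of 6.84 ± 0.42 (SD, n = 23). Its SD ranked 36 among the 40. Smaller SDs were found only for Slc7a14, Slc43a1, Slc6a4 and Slc6a7, which were listed at 0 in 12 to 22 tumors and were not tested. Of the light chains, Slc7a5 (LAT1, chr8:121881150-121907694, minus strand), which exchanges leucine and other large neutral amino acids, ranged from 3.41 in X9387T through a median of 5.72 to 6.93 in X606T. Slc7a5 was the light chain with the highest level in 21 of 23 tumors, and Slc7a11 and Slc7a6 were each the highest in 1. In every tumor Slc3a2 exceeded Slc7a5, by 0.18 in X437T up to 3.23 in X9387T (mean difference 1.33).

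Slc7a6 (y+LAT2) and Slc7a7 (y+LAT1) export cationic amino acids in exchange for neutral ones. Slc7a6 (chr8:106168857-106198706, plus strand) ranged from 0.59 in X1310T1 through a median of 2.76 to 4.55 in X9387T, followed by 4.48 in X738T and 4.38 in X520T. Slc7a7 (chr14:54369442-54417780, minus strand) ranged from 1.90 in X154T through 2.87 to 4.41 in X4351T. It overlaps Oxa1l on the other strand, and the sources do not say whether reads were counted by strand, so part of its value cannot be told apart from Oxa1l (mean level 3.66). Slc7a8 (LAT2), a second carrier of large neutral amino acids, ranged from 0, listed in X147T and X370T, through a median of 1.98 to 4.65 in X1515T, 1.52 above the next tumor. Slc7a6os, which lies tail to tail beside Slc7a6, was at 4.13 ± 0.50 (SD, n = 23).

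Slc7a11 (xCT, chr3:49892526-50443614, minus strand) is the light chain that imports cystine in exchange for glutamate, and it varied much more than the heavy chain, with an SD of 1.25. It was listed at 0 in X493T1, X493T2 and X606T, had a median of 0.84, and reached 4.27 in X1310T2, 3.53 in X1515T and 3.05 in X1418T. In X1310T2 alone it exceeded every other light chain, with Slc7a5 there at 4.15. Within 1 pair of tumors that share a title number, X1310T2 was at 4.27 and X1310T1 at 1.95.

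RefSeq promoter windows, from 250 bases before to 50 bases after an annotated start on GRCm38.p6, were found for 27 of the 40 genes, 39 windows in all. They were searched on both strands for letters of elements that known regulators of these carriers bind. The core of the ATF4 composite element (TGATGNAA) was in 4 of 39 member windows and in 3.97% of all 32851 windows. In 3 member genes, Slc7a11, Slc1a4 and Slc7a7 (overlapping windows), a window held this core. The Slc7a11 window holds it at positions -66 on the strand of the gene and -47 on the other strand, counted from the start to the leftmost base of each match. An element core of Nrf2 (TGACNNNGC, in 9 of 39 member windows and 12.4% of all windows) was not in that window. The last run of capitals there is the letters GAGGAAG of a PU.1 element (in 8 of 39 member windows and 13.6% of all windows). Letters of an AP-1 element (TGANTCA, in 7.81% of all windows) were in 6 of 39 member windows, from 5 member genes, none of them shown here. In Slc1a4 the ATF4 letters are at -4 on the other strand. The Slc36a1 window holds the E-box letters CACGTG (in 4 of 39 member windows and 7.15% of all windows) at -31 and -3. The Nrf2 core there begins at 2 and overlaps the second E-box. These 3 windows, of Slc7a11, Slc1a4 and Slc36a1, are a choice among genes that return in the comparisons below, and all 3 hold matches. The windows of Slc3a2, Slc38a6 and Slc43a2, which return as well, held 0 matches. Capitals mark the matches named here.
Slc7a11 promoter, chr3:50443564-50443863, minus strand: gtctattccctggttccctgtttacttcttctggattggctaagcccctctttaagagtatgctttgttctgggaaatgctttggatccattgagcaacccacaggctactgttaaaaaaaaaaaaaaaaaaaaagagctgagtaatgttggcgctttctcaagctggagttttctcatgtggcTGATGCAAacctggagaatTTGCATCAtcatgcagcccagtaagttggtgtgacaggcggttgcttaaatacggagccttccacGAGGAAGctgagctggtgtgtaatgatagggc
Slc1a4 promoter, chr11:20332664-20332963, minus strand: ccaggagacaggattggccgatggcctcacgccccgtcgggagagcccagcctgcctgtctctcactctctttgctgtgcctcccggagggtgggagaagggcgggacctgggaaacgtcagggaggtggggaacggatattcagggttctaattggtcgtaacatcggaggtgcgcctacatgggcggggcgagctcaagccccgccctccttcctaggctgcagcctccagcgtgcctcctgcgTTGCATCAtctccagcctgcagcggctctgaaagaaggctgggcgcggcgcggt
Slc36a1 promoter, chr11:55204090-55204389, plus strand: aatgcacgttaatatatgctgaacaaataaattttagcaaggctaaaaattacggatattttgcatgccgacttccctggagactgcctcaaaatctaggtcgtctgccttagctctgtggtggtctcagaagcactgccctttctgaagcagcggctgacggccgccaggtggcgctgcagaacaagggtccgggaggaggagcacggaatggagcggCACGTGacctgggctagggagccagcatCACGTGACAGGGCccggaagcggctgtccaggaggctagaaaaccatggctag

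Among the carriers of glutamine and small neutral amino acids, Slc38a2 (SNAT2), which takes up glutamine and alanine with sodium, was the second most abundant gene. It ranged from 4.92 in X493T2 through a median of 6.38 to 7.03 in X1515T. Slc38a1 (SNAT1), its family neighbour with overlapping substrates, was lower and more variable: listed at 0 in X1463T2 and X606T, it had a median of 2.78 and a maximum of 4.43 in X437T (SD 1.10). The exchanger Slc1a5 (ASCT2), a main route for glutamine, ranged from 2.1 in X1310T1 through 3.93 to 5.64 in X738T. Its relative Slc1a4 (ASCT1), which exchanges serine and alanine, ran from 0.55 in X1310T1 through 2.32 to 4.03 in X9387T. Slc38a10, whose transport activity is less well described, was the third most abundant, from 3.54 in X1463T2 through 5.79 to 7.21 in X606T.

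Slc38a3 (SNAT3), a glutamine carrier best known from liver, kidney and brain, was uneven between tumors, with an SD of 1.46. It was listed at 0 in 10 tumors and had a value in the other 13, with a median of 0.35 and the highest levels in X606T (5.15), X493T1 (4.18), X1463T2 (2.89) and X147T (2.66). Slc38a7, which exports glutamine from lysosomes, was found in every tumor, from 1.84 in X1418T to 3.76 in X493T2, with a median of 2.68.

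Cationic amino acids such as arginine and lysine enter through Slc7a1 (CAT1), Slc7a2 (CAT2) and Slc7a3 (CAT3). Slc7a1 was found in every tumor, from 1.80 in X1310T1 through a median of 3.5 to 5.60 in X1418T. Slc7a2 had the largest SD of the 40 genes, 1.54, and ranged from 0.07 in X493T2 and 0.17 in X437T through 2.74 to 5.50 in X1515T. Slc7a3 (chrX:101079210-101086020, minus strand) was listed at 0 in 10 tumors and was highest in X147T (3.26), X149T2 (2.46) and X370T (1.83).

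The Slc6 family held a pair of abundant genes present in every tumor, and a pair that varied widely and was listed at 0 in some. Slc6a8, the creatine carrier, ranged from 4.04 in X1310T1 through 4.79 to 6.35 in X92T, and Slc6a6, the taurine carrier, from 3.71 in X1310T1 through 5.04 to 6.49 in X493T1. Slc6a9, a glycine carrier, had a median of 2.26 (0.92 to 4.03). It overlaps B4galt2 and Ccdc24 on the other strand, from which it cannot be told apart without strand. Slc6a14, which takes up neutral and cationic amino acids, was listed at 0 in 11 tumors and reached 4.54 in X1310T1 and 3.92 in X1515T. Slc6a15, a carrier of branched-chain amino acids best known from neurons, was listed at 0 in 5 tumors and reached 4.80 in X1463T2 and 4.05 in X149T2.

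Of the high-affinity glutamate carriers, only Slc1a1 (EAAT3), which also takes up cysteine, was tested. Slc1a1 was listed at 0 in 5 tumors, namely all 4 with the lower epithelial scores and X154T, had a median of 2.47 and reached 4.27 in X493T1. Slc38a3 and Slc6a14 were also listed at 0 in all 4 of those tumors, as well as in 6 and 7 of the other 19. Being at 0 in all 4 held for 3 of 28 members and for 3.47% of all genes tested. Slc1a2 and Slc1a3, the glial glutamate carriers, were listed at 0 in 14 and 17 tumors. Slc1a3 reached 3.71 in X149T2, 1.94 above the next tumor, and no member had a tumor 2 or more above the next.

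Slc36a1 (PAT1) and Slc36a4 (PAT4) are the carriers tested from the Slc36 family. Slc36a1 moves small neutral amino acids together with protons, across the lysosomal membrane among others. Slc36a1 (chr11:55204350-55236330, plus strand) ranged from 0.75 in X370T through a median of 1.86 to 3.66 in X520T, and Slc36a4 from 0.10 in X154T through 1.58 to 3.38 in X92T. Slc43a2 (LAT4, chr11:75531694-75577575, plus strand), which lets branched-chain amino acids and phenylalanine pass by facilitated diffusion, was listed at 0 in X147T and ranged through 2.45 to 4.59 in X738T. Slc43a3, a member of that family described as a carrier of purine bases, ranged from 2.12 in X370T through 3.24 to 5.04 in X738T.

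The 12 genes under the limit were Slc36a1os, Slc38a9, Slc6a2, Slc7a4, Slc1a3, Slc1a2, Slc6a17, Slc7a14, Slc38a4, Slc43a1, Slc6a4 and Slc6a7. Slc38a9, a lysosomal sensor of arginine, was low but widespread, with a value above 0 in 18 tumors and a maximum of 1.76. The noradrenaline carrier Slc6a2 reached 3.0 in X606T and was listed at 0 in 14 tumors. The serotonin carrier Slc6a4 and the proline carrier Slc6a7 had values above 0 in 3 tumors and 1 tumor. Slc38a4 was listed at 0 in 21 tumors and was at 2.51 in X1418T.

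To ask which carriers followed the program that cells start on amino acid shortage, each gene was regressed with limma on a score of 26 known ATF4 target and amino acid response genes, none of them a member. The score ran from -0.98 in X1310T1 to 1.27 in X520T. After Benjamini-Hochberg adjustment over all genes tested, 0 of 28 members rose and 0 fell, beside 0.0249% and 0.0% of all genes. At an unadjusted p under 0.05, 8 of 28 members rose and 1 fell, beside 15.5% and 6.13% of all genes tested. Positive slopes were found for 20 of the 28, and for 62.0% of all genes. The slope is the difference in level per SD of the score, and its median was 0.23 for the members and 0.08 for all genes tested. Slc1a4 had the smallest p, with a slope of 0.53 ± 0.16 (SE, n = 23, limma adjusted p = 0.0959). Slc7a6 followed at 0.49 ± 0.17 (SE, limma adjusted p = 0.120) and Slc38a10 at 0.45 ± 0.16 (SE, limma adjusted p = 0.132). The slopes were 0.003 for Slc7a5 (limma adjusted p = 0.994), -0.08 for Slc3a2 (limma adjusted p = 0.639) and -0.17 for Slc38a2 (limma adjusted p = 0.423). Slc7a11, an ATF4 target in other settings, gave no call either, with a slope of -0.19 ± 0.26 (SE, limma adjusted p = 0.685). Its r with Atf4 itself was 0.258 over 23 tumors (permutation p = 0.235, adjusted p = 0.555), and 0.0631 without X1310T2 and X1515T. With tumors centred on their median that r was 0.482 (permutation p = 0.0203, adjusted p = 0.0609) and rho 0.464 (permutation p = 0.0272).

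**Figure D3:**
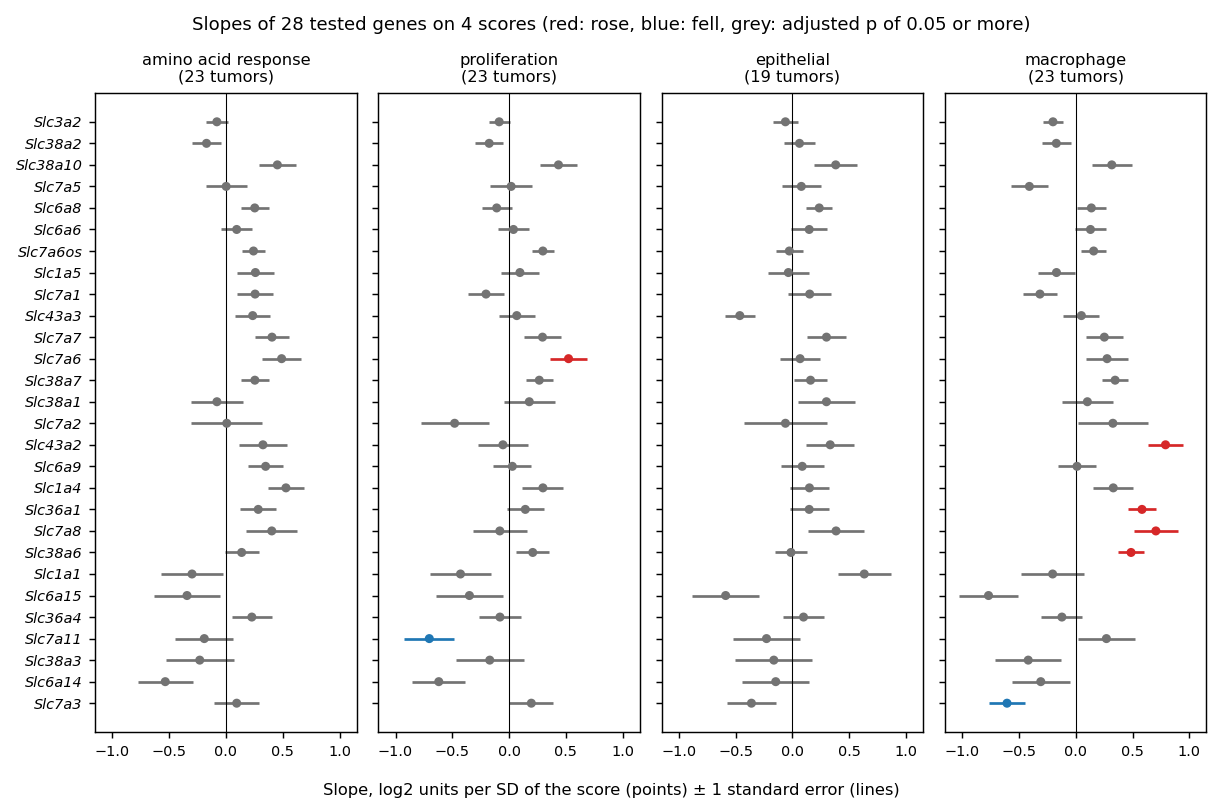
Slopes in log2 units per SD of each of 4 scores (points) with 1 standard error on each side (lines) for the 28 tested genes, in 23 tumors or, for the epithelial score, 19. On the macrophage score 4 genes are past the threshold to the right (red) and Slc7a3 to the left (blue), on the proliferation score 1 in each direction, and on the other two scores none.

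Along a score of 24 replication and mitosis genes, 1 of 28 members rose and 1 fell, beside 7.12% and 1.11% of all genes tested. Slc7a6 rose by 0.52 ± 0.16 per SD (SE, n = 23, limma adjusted p = 0.0485), and the cystine carrier Slc7a11 had a slope of -0.70 ± 0.22 per SD (SE, limma adjusted p = 0.0461). X1515T had the lowest proliferation score, -2.17, and X1418T the next, -1.36, and both were among the 3 tumors with the most Slc7a11. Both calls were at the edge of the threshold. Leaving out 1 tumor at a time ended the call in 19 of 23 cases for Slc7a6 (adjusted p up to 0.0904, without X520T) and in 15 of 23 for Slc7a11 (up to 0.200, without X1515T). Within the 15 tumors of higher immediate-early score the slopes were 0.49 for Slc7a6 (adjusted p = 0.217) and -0.70 for Slc7a11 (adjusted p = 0.198), close to those over all tumors. With tumors centred on their median they were 0.41 (adjusted p = 0.178) and -0.63 (adjusted p = 0.181). In the 19 tumors of higher epithelial score the slopes were 0.35 for Slc7a6 (adjusted p = 0.197) and -0.80 for Slc7a11 (adjusted p = 0.0563). The 3 tumors with the most Slc7a6, X9387T, X738T and X520T, are outside those 19. Of the genes of amino acid sensing and mTORC1 signalling, 2 of 33 rose with the proliferation score and 0 fell. The shares of all genes tested were 7.12% and 1.11%. They were the Ragulator subunits Lamtor1 (0.34 ± 0.09 per SD, SE, limma adjusted p = 0.0265) and Lamtor5 (0.37 ± 0.09, limma adjusted p = 0.0154). Of 30 genes of glutamine, arginine and branched-chain metabolism, 1 rose and 0 fell, beside the same shares of all genes. The riser was the spermidine synthase Srm (0.52 ± 0.15 per SD, SE, limma adjusted p = 0.0351). Along the other scores 0 genes of either list passed the test.

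The study names subgroups of its tumors after basal or luminal and epithelial or mesenchymal markers. Because the epithelial score fell into separate clusters, its regression was run over the 19 tumors of higher score alone. It does not compare them with the 4 tumors of lower score. Among the 19 tumors 0 of 28 members rose and 0 fell, beside 0.0249% and 0.0% of all genes tested. At an unadjusted p under 0.05, 1 of 28 rose and 1 fell, beside 7.88% and 3.93% of all genes tested. They were Slc1a1 with a slope of 0.63 ± 0.23 (SE, n = 19, limma adjusted p = 0.304) and Slc43a3 with -0.46 ± 0.13 (SE, limma adjusted p = 0.174). Both adjusted values leave these slopes short of a call.

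Most of the calls among the carriers came along the macrophage markers, which were included because a tumor piece holds macrophages beside tumor cells. A score of 17 macrophage genes, such as the receptor gene Csf1r (0.18 to 7.16) and the complement gene C1qa (0.97 to 9.27), ran from -2.21 in X370T to 1.16 in X9387T, with X147T (-2.0) and X149T2 (-1.24) the next lowest. The macrophage marker Adgre1 was listed at 0 in 2 tumors. Of 28 members 4 rose and 1 fell, beside 4.15% and 0.407% of all genes tested. In bulk tissue a lower value from fewer cells of a type cannot be told apart from less RNA per cell.

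**Figure D4:**
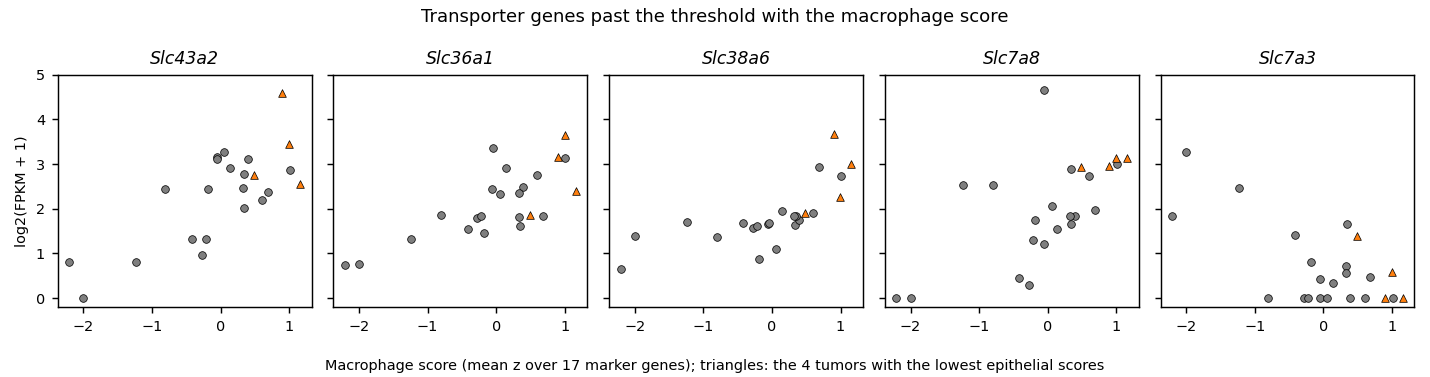
Levels as log2(FPKM + 1) of the 5 genes past the threshold against the macrophage score in 23 tumors, with triangles for the 4 tumors of lower epithelial score. Slc43a2 and Slc36a1 are low in the 3 tumors furthest left (0 to 0.82 and 0.75 to 1.32), where Slc7a3 has its 3 highest values (1.83 to 3.26).

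Slc43a2 showed the largest slope, 0.79 ± 0.15 per SD (SE, n = 23, limma adjusted p = 0.00127). Its 3 lowest tumors, X147T (0), X149T2 (0.80) and X370T (0.82), were the 3 with the lowest macrophage scores, while its 2 highest, X738T (4.59) and X520T (3.45), were in the upper part. Slc36a1 rose by 0.58 ± 0.12 per SD (SE, limma adjusted p = 0.00297), and its 3 lowest tumors were the same 3. Both calls held in all 31 alternatives, with adjusted p-values of 0.0123 and 0.0246 in the 19 tumors of higher epithelial score and 0.0270 and 0.0391 in the 15 of higher immediate-early score.

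Slc38a6, an orphan member of the Slc38 family, rose by 0.49 ± 0.12 per SD (SE, n = 23, limma adjusted p = 0.0130). It was lowest in X370T (0.65) and highest in X738T (3.66) and X9387T (3.01). Slc7a8 rose by 0.71 ± 0.19 per SD (SE, limma adjusted p = 0.0310), with its highest tumor, X1515T, in the middle of the score (-0.06). Neither call held in the 19 tumors of higher epithelial score, where the slopes were 0.35 (adjusted p = 0.175) and 0.60 (adjusted p = 0.278), or in the 15 of higher immediate-early score, where they were 0.43 (adjusted p = 0.175) and 0.75 (adjusted p = 0.217). The Slc38a6 call was also lost without X370T (adjusted p = 0.0535). That of Slc7a8 was lost without X147T (0.132), X370T (0.120), X520T (0.0643), X738T (0.0561) or X9387T (0.0552), and with tumors centred on their median (0.0610).

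Slc7a3 fell by 0.60 ± 0.16 per SD (SE, n = 23, limma adjusted p = 0.0226), the opposite direction. The call was lost without X147T (slope -0.39, adjusted p = 0.191) or X149T2 (-0.52, adjusted p = 0.0640), and kept without X370T, the tumor with the lowest score (-0.57, adjusted p = 0.0439). It was also lost with ranks of the score (slope -0.45, adjusted p = 0.139). The same held for a pseudocount of 0.1 (adjusted p = 0.0904) and for 1 tumor per title number (adjusted p = 0.105). The call was kept in the 19 tumors of higher epithelial score (slope -0.68, adjusted p = 0.0367). In the 15 of higher immediate-early score the slope was -0.72 and the adjusted p 0.0913.

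The leucine exchanger Slc7a5 had a slope of -0.41 ± 0.16 per SD (SE, n = 23, limma adjusted p = 0.174), which is no call. When the immediate-early score entered as a covariate, the slope was -0.64 (adjusted p = 0.00804), and within the 15 tumors of higher immediate-early score it was -0.69 (adjusted p = 0.0270). In the 19 tumors of higher epithelial score the slope was -0.20 (adjusted p = 0.725). With 1 tumor per title number it was -0.36 (adjusted p = 0.311). Of 16 other amino acid and peptide carriers, 3 rose and 0 fell with the macrophage score, beside 4.15% and 0.407% of all genes tested. They were Slc15a3, a lysosomal carrier of histidine and peptides (1.28 ± 0.13 per SD, SE, limma adjusted p = 1.40e-07), Slc16a10, a carrier of aromatic amino acids (0.46 ± 0.13, limma adjusted p = 0.0379), and Pqlc2, a lysosomal exporter of cationic amino acids (0.46 ± 0.13, limma adjusted p = 0.0362). Other cell types moved with the score as well: 6 of 9 endothelial markers rose and 0 fell (endothelial score from -2.26 in X147T to 1.47 in X738T). Their median slope was 0.60 per SD. Of 11 fibroblast and 19 epithelial markers 0 passed the test in either direction, with median slopes of 0.37 and -0.89. For 4 erythroid markers the median slope was 1.40 and 0 passed, and 1 of 5 neutrophil markers rose. The part of these cell types in the carrier results was not tested.

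Pairs of genes were compared for 15 of 18 relations that join the chains of a heterodimer, exchangers of linked substrates, family neighbours, or a carrier and a known regulator. The adjusted p was under 0.05 for 2 of the 15. Slc3a2 and Slc7a5, the heavy and light chain of the main leucine exchanger, rose and fell together over the 23 tumors. Pearson's r was 0.577 (permutation p = 0.00372, adjusted p = 0.0279) and Spearman's rho 0.674 (permutation p = 0.00038). Without X149T2 and X493T2, the tumors farthest from the median of Slc3a2, r was 0.523 (adjusted p = 0.0741). The adjusted p also passed 0.05 without X1463T1 (0.0514), X149T2 (0.0787), X606T (0.0588) or X738T (0.0577), and with 1 tumor per title number (r = 0.536, adjusted p = 0.0873). Within the 15 tumors of higher immediate-early score r was 0.663 (adjusted p = 0.118), and within the 19 of higher epithelial score 0.609 (adjusted p = 0.0446).

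**Figure D5:**
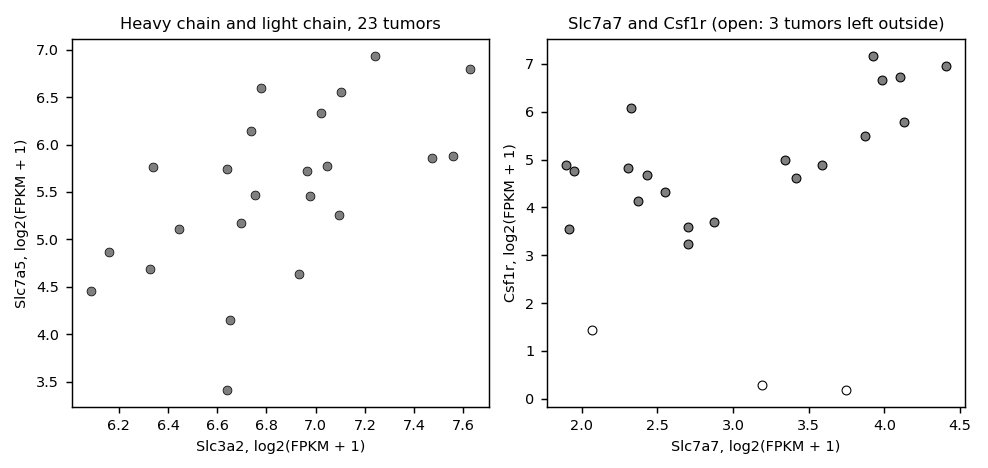
Slc7a5 against Slc3a2 in 23 tumors (left) and Csf1r against Slc7a7 (right), all as log2(FPKM + 1). On the left r is 0.577; on the right r is 0.683 over the 20 filled points, and the 3 open points are X147T, X149T2 and X370T, where Csf1r was low and which were kept out of r.

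No call was made for the other light chains with the heavy chain. Slc3a2 and Slc7a6 had r = -0.485 (permutation p = 0.0188, adjusted p = 0.0938) and rho = -0.527 (permutation p = 0.0109), which passed the threshold with tumors centred on their median (r = -0.546, adjusted p = 0.0322) and without X1463T1 (r = -0.691, adjusted p = 0.00555), and was -0.371 in the 19 tumors of higher epithelial score. The pair of Slc3a2 and Slc7a8 had r = -0.349 (permutation p = 0.102), with a rho of -0.522 (permutation p = 0.0120). For Slc3a2 r was -0.232 with Slc7a7 (permutation p = 0.283) and -0.213 with Slc7a11 (permutation p = 0.327). Whether these values differ from that of Slc7a5 was not tested.

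Slc7a7 and Csf1r, the receptor gene that marks macrophages, were related over the 20 tumors of the larger Csf1r cluster (r = 0.683, permutation p = 0.00124, adjusted p = 0.0186, and rho = 0.577, permutation p = 0.00887). After removal of X2265T and X4351T, r was 0.615 (adjusted p = 0.0741), and leaving out 1 tumor at a time kept r between 0.629 and 0.755 with adjusted p up to 0.0410. Among the tumors of higher immediate-early score r was 0.412 (adjusted p = 0.421). In the 3 tumors left outside, Slc7a7 was at 3.75 in X370T, 3.19 in X147T and 2.07 in X149T2, while Csf1r was at 0.18, 0.28 and 1.44. Slc7a7 was thus in the upper part of its range in X370T, the tumor with the least Csf1r. The slope of Slc7a7 on the macrophage score over all 23 tumors was 0.25 ± 0.16 per SD (SE, limma adjusted p = 0.412).

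The remaining relations gave no call. Slc1a5 and Slc7a5, which act in series where glutamine leaving the cell drives leucine uptake, had r = -0.110 (permutation p = 0.617). Slc38a1 with Slc38a2 had r = 0.212 (permutation p = 0.333), Slc1a4 with Slc1a5 0.00474 (permutation p = 0.983) and Slc7a1 with Slc7a2 0.0925 (permutation p = 0.677). The oncogene Myc, known to induce glutamine and leucine carriers, had r = -0.165 with Slc7a5 (permutation p = 0.45) and 0.173 with Slc1a5 (permutation p = 0.387). Myc was at 10.3 in X154T and next at 6.89 in X493T2. With 1 tumor left out r stayed within -0.233 to -0.0519 and 0.0974 to 0.260. Spearman's rho was -0.111 and 0.205 (permutation p = 0.614 and 0.346). With 1 tumor per title number rho was -0.0123 and 0.453 (permutation p = 0.963 and 0.0533). For Slc7a11, r was -0.170 with Trp53 (permutation p = 0.436) and 0.266 with a score of 12 Nrf2 targets (permutation p = 0.220). The last of these passed the threshold with tumors centred on their median (r = 0.565, adjusted p = 0.0322), where rho was 0.303, and was -0.0514 without X1310T2 and X1515T, the tumors with the most Slc7a11. Over the 13 relations without a call, adjusted p-values ran from 0.0938 to 0.983, rho from -0.527 to 0.207 with permutation p from 0.0109 to 0.911, and r without the 2 farthest tumors from -0.545 to 0.212.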

How the data were processed

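RNA from 23 tumor pieces, taken up in TRIzol, was made into libraries with a NEBNext Ultra kit. The authors deposited log2(FPKM + 1) for 14535 symbols. FPKM had been computed by the authors, and the submitters' processing notes name Trimmomatic 0.35, TopHat2 2.0.13, Cufflinks 2.2.1 and build mm10. The methods name another TopHat release and more than 1 sequencer, without saying which tumor was run on which. No whole-read steps were found in the low values, so depth could not be recovered. FPKM depends on the composition of each library, so centring each tumor on its median was tried as an alternative. Values at 0 entered all computations, and log2(FPKM + 1) understates differences of low genes.

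Members, lists and tests were chosen with earlier results of these data known. A list score is the mean z-score of its genes at an average FPKM of at least 1. A score or gene with a gap over 0.25 of its range and at least 3 tumors on each side was taken as separate clusters, and the larger was used. Genes at the same limit were regressed on each score, scaled to SD 1, with limma 3.58.1 in R 4.3.3 (trend, two-sided moderated test, Benjamini-Hochberg over all genes tested, threshold 0.05). Relations used r (Pearson) and rho (Spearman), each with a two-sided permutation test (100000 draws, scipy 1.17.1, Python 3.11.15, smallest p 1e-05), adjusted over 15 relations. No value was computed for Slc3a2 with Slc7a10, Slc3a1 with Slc7a9, or Slc43a1 with Slc43a2. Scripts were tested on simulated data.

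Genes named with values were the 12 with the highest mean, the 8 with the largest SD, members whose highest tumor lay 2 or more above the next, members of the relations, and up to 10 called members per direction in each regression. Others were named after their values were seen. Alternatives were a pseudocount of 0.1, no filter, centring, 1 tumor per title number, the immediate-early score as covariate, its larger cluster, ranks of the score, and each tumor left out. The restriction to the 19 tumors of higher epithelial score was chosen after seeing the data. Positions are GENCODE release M21 on GRCm38, and promoter sequences are from RefSeq on GRCm38.p6.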

Additional observations from a re-analysis of the deposited data

How the results depend on the processing

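Calls along the amino acid response and epithelial scores stayed at 0 members in either direction under every alternative run. Along the proliferation score, the members that rose numbered 0 with a pseudocount of 0.1, no filter, centring, 1 tumor per title number, the immediate-early covariate, the 15 tumors of its larger cluster or the 19 tumors of higher epithelial score, and 2 with ranks of the score, against 1. Those that fell numbered 0 with a pseudocount of 0.1, centring, the covariate, either subset of tumors or ranks. Leaving out 1 tumor gave 0 to 2 that rose and 0 to 1 that fell. Along the macrophage score, 2 rose within either subset of tumors, against 4, and 0 fell with a pseudocount of 0.1 or 1 tumor per title number, and 2 with the covariate, against 1. Leaving out 1 tumor gave 2 to 5 that rose (2 without X370T) and 0 to 2 that fell (0 without X147T or X149T2, 2 without X1463T1 or X370T). Relations past the threshold numbered 4 with centring, 1 with 1 tumor per title number, 0 in the tumors of higher immediate-early score and 0 without the 2 farthest tumors, against 2, and 1 to 2 with 1 tumor left out. Members with an SD of 1 or more numbered 14 with a pseudocount of 0.1, against 9.

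Slopes that were called kept their sign throughout. Only relations short of a call changed sign. Slc1a4 and Slc1a5 had r = -0.0620 with centring, -0.00951 with 1 tumor per title number, -0.00235 with the covariate, -0.236 without the 2 farthest tumors, -0.0924 in the tumors of higher epithelial score, and -0.258 to 0.210 with 1 tumor left out. Slc1a5 and Slc7a5 had 0.187 in the tumors of higher immediate-early score and 0.0295 without the 2 farthest tumors. Slc7a1 and Slc7a2 had -0.0256 without the 2 farthest tumors and -0.0462 to 0.181 with 1 tumor left out. Slc3a2 and Slc7a11 had 0.0874 with centring. Slc7a11 had -0.00650 with Atf4 in the tumors of higher immediate-early score, 0.193 with Trp53 under the covariate and 0.411 in those tumors, and -0.0514 with the Nrf2 targets without the 2 farthest tumors. The cause of these changes was not tested. Depth is unknown, so what it limits could not be measured.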

Other observations

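The carriers were set side by side in tumors that share a title number. The median absolute difference in level over the 28 tested genes was 0.489 between X149T1 and X149T2, 0.736 between X493T1 and X493T2, 0.767 between X1463T1 and X1463T2, and 1.10 between X1310T1 and X1310T2. The median over the 249 pairs of tumors with different numbers was 0.834, so the pair X1310T1 and X1310T2 lay above it. Slc7a11 was at 1.95 in X1310T1 and 4.27 in X1310T2, and Slc6a14 at 4.54 and 1.85.

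Single tumors held several extremes. X1310T1 was the lowest tumor for 8 of the 20 members whose lowest value belongs to 1 tumor, among them Slc1a4, Slc1a5, Slc6a6, Slc6a8, Slc7a1 and Slc7a6, and for 8.71% of all such genes tested. It also had the lowest median level of the tested genes (3.08) and the third highest Slc3a2 (7.47). X738T was the highest tumor for 4 members, Slc1a5, Slc38a6, Slc43a2 and Slc43a3, and for 6.82% of all genes tested.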
